A study of Mus musculus with 12 samples.

Results

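Transcripts of 10 immediate-early transcription regulators were followed across the 3 groups of mouse liver cells in the study. They share a known function, were chosen with earlier results of these data known, and are 10 of the 53715 genes in the count table. Fos, Fosb, Fosl1 and Fosl2 encode Fos proteins, and Jun, Junb and Jund encode Jun proteins. A Fos and a Jun protein join through basic leucine zippers into the dimer called AP-1, and Jun proteins can also pair with each other. Egr1 encodes a zinc-finger factor that binds GC-rich promoters, Atf3 a leucine-zipper factor of the ATF/CREB group that is induced by stress, and Ier2 a small nuclear protein. Immediate-early genes such as Fos and Egr1 are transcribed within minutes of growth factors, serum, cytokines, osmotic or mechanical stress or the enzymatic dissociation of a tissue. This needs no new protein synthesis, and their mRNAs are short-lived. Whether each of the 10 is induced in that way in these cells was not tested. In liver they are known from the priming of hepatocytes after partial hepatectomy, and Jun is needed for the development of the embryonic liver.

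Reads per gene were counted in 12 RNA libraries, 4 in each group, all from C57BL/6JOlaHsd mice. Hepatoblasts, the bipotent progenitors of hepatocytes and bile duct cells, were separated with magnetic beads by their surface protein Dlk1 from pooled livers of stage E14.5 after enzymatic digestion, and went straight to RNA isolation. The in vitro diff. hepatocytes, called in vitro hepatocytes from here on, were such hepatoblasts after 4 days on fibronectin in differentiation media that held serum, dexamethasone and Matrigel. Mature hepatocytes were obtained from adult males of 8 to 12 weeks by collagenase perfusion and also went straight to RNA isolation. The comparison of in vitro hepatocytes with hepatoblasts asks what changes during culture. That of mature hepatocytes with hepatoblasts asks what differs between the adult and the embryonic isolate. That of in vitro with mature hepatocytes asks where the cultured cells depart from the adult cell. Hepatoblasts and mature hepatocytes were both taken at dissociation and the in vitro hepatocytes after days of culture, so cell state, medium and time since dissociation cannot be told apart. The fresh isolates also differ in isolation, with digestion and magnetic beads for hepatoblasts and collagenase perfusion for mature hepatocytes. Mature hepatocytes came from males, and the sex of the embryos is not stated. Development therefore cannot be told apart from isolation or sex between them. Library totals ran from 19581551 to 25216977 counts.

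Summed markers set hepatoblasts and mature hepatocytes apart as labelled, while the in vitro hepatocytes overlapped the hepatoblasts in both lists. The 6 hepatoblast markers, led by Afp, summed to 41842 to 70065 CPM (counts scaled for library size) in hepatoblasts, 37829 to 44146 CPM in the in vitro hepatocytes, where H19 led, and 65.9 to 109 CPM in mature hepatocytes. The 8 hepatocyte markers, led by Alb in each library, summed to 32970.0 to 55795, 53689 to 62189.8 and 118491 to 166785 CPM in the same order. These sums rest largely on their leading genes. In culture against hepatoblasts 5 of the 6 hepatoblast markers fell, beside 14% of all tested genes, and 4 of the 8 hepatocyte markers rose, beside 14.9%. Dlk1, the protein used for the isolation, read 3523 ± 759 CPM in hepatoblasts, 94.2 ± 4.55 CPM after culture and 4.19 ± 1.502 CPM in mature hepatocytes (SD, n = 4). Cyp3a11, a cytochrome of the adult liver, read 5.43 ± 1.998 CPM, 355 ± 19.3 CPM and 3945 ± 852 CPM, while Cyp2e1, another, read 2.82 ± 0.266 CPM, 3.24 ± 0.790 CPM and 6504 ± 2033 CPM, so the in vitro hepatocytes lacked the adult level of both. Hepatoblast replicate 1 stood apart from its group. Its 9 erythroid markers summed to 2459 CPM against 297 to 489.6 CPM in the other hepatoblast libraries, its 9 macrophage markers to 311 CPM against 77.5 to 97.5 CPM and its 6 neutrophil markers to 416 CPM against 28.2 to 45.8 CPM, led by Hbb-bs, a globin gene with near-identical copies, Cd5l and Mpo.

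Summed markers of other cell types differed between groups for some lists and overlapped for others. The macrophage sums overlapped across the groups, as did the neutrophil sums of hepatoblasts and in vitro hepatocytes. The 8 endothelial markers summed to 146, 75.6, 55.0 and 49.9 CPM in hepatoblast replicates 1 to 4, 11.6, 15.9, 8.71 and 12.2 CPM in the in vitro hepatocytes and 224, 132, 234 and 170.0 CPM in mature hepatocytes. Of the 8, 7 fell in the in vitro hepatocytes against hepatoblasts and all 8 against mature hepatocytes, beside 14% and 15.6% of all tested genes. Stab2, Egfl7, Pecam1 and Kdr led the list in one library or another, and in vitro replicates 3 and 4 each had 1 endothelial marker at 0. The 9 macrophage markers summed to 311, 77.5, 97.5 and 93.9 CPM, 139, 62.2, 20.5 and 30.5 CPM and 234, 137, 259 and 130.3 CPM in the same order, led by Cd5l or Marco, Csf1r and Clec4f in turn. The 9 erythroid markers summed to 6.66 to 24.6 CPM in the in vitro hepatocytes and, mostly as Alas2, to 135 to 185 CPM in mature hepatocytes. The 9 mesenchymal markers summed to overlapping levels in hepatoblasts (1249 to 2257 CPM, led by Reln) and in the in vitro hepatocytes (1279.6 to 2967 CPM, led by Col1a1) and to less in mature hepatocytes (66.8 to 97.8 CPM, led by Dcn). The 7 bile duct markers summed to 26.9 to 35.7, 92.7 to 233 and 37.4 to 66.0 CPM and the 6 neutrophil markers to 28.2 to 416, 5.42 to 97.9 and 0.497 to 1.35 CPM in hepatoblasts, in vitro and mature hepatocytes. These libraries are bulk RNA, in which fewer cells of a type and less RNA per cell cannot be told apart, and the part that endothelial, macrophage, blood or mesenchymal cells have in the values of the immediate-early genes was not tested.

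Most of the immediate-early transcripts were far lower in the in vitro hepatocytes than in either fresh isolate. Against hepatoblasts, 9 of the 10 genes changed: Fos, Fosb, Jun, Junb, Jund, Egr1, Atf3 and Ier2 fell and Fosl1 rose. Calling a change required an absolute log2 fold change over 1 along with an edgeR adjusted p under 0.01, adjusted over the 17779 genes that passed the filter on low counts. The 10 members passed that filter. Over all 17779 genes 28.9% were called, 14.9% higher and 14% lower in the in vitro hepatocytes. Against mature hepatocytes 8 of the 10 changed, Fosl1 upward and Fos, Fosb, Jun, Junb, Jund, Egr1 and Ier2 downward, where 35.8% of all genes were called, 20.2% higher and 15.6% lower. Mature hepatocytes and hepatoblasts differed in 4 of the 10, with Fosl2 higher and Fos, Fosb and Atf3 lower in mature hepatocytes, where 44.8% of all genes were called, 20.1% higher and 24.7% lower. The median log2 fold change of the 10 was -2.60 in the in vitro hepatocytes against hepatoblasts, -2.69 against mature hepatocytes and -0.57 in mature hepatocytes against hepatoblasts, where the median of all tested genes was -0.01, 0.09 and -0.15. No library of either group reached into the range of the other for 9, 8 and 5 of the 10 in that order, against 57.5%, 61.6% and 66.0% of all tested genes. Each pair of comparisons shares a group of libraries.

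The scaling of the libraries moved the comparisons with mature hepatocytes. When libraries were scaled to their totals instead of by TMM factors, the median of all genes went to -0.34, 0.62 and -1.0003 in the same order. Over all tested genes, 1985 were then called higher and 3621 lower in the in vitro hepatocytes against hepatoblasts. Against mature hepatocytes 5500 were called higher and 1776 lower. The 9 calls against hepatoblasts held under that scaling, with 1 member higher and 8 lower, and so did 7 of the 8 against mature hepatocytes, the exception being Jund. Between mature hepatocytes and hepatoblasts 6 members were then called, all lower, as Fosl2 lost its call and Jun, Jund and Egr1 gained one. Of all 17779 tested genes, 9927 were called in that comparison under scaling to totals, 2007 higher and 7920 lower. Without hepatoblast replicate 1 the counts were 9, 8 and 4, and without mature replicate 2, whose immediate-early genes ran low, they were 9, 9 and 3.

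**Figure D1:**
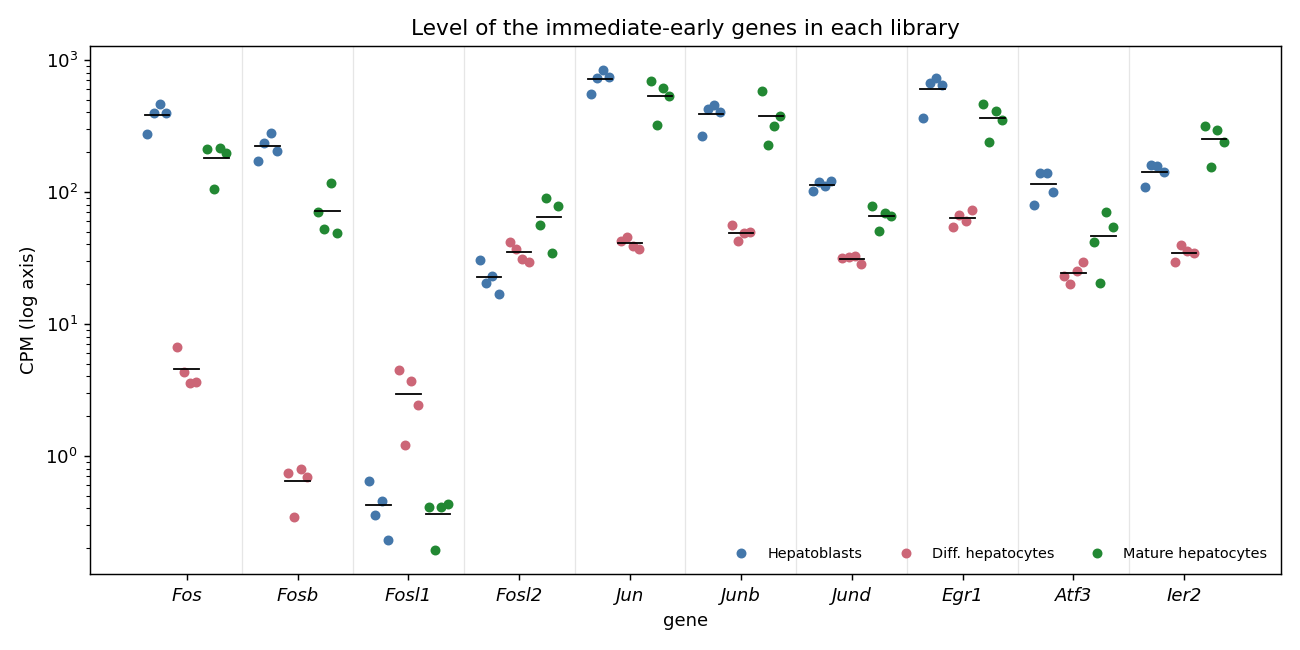
CPM of each of the 10 genes in each library, on a log axis, with a column for each gene, 1 point a library and a line at the group mean (n = 4). The points of the in vitro (Diff.) hepatocytes lie below both other groups for Fos, Fosb, Jun, Junb, Jund, Egr1 and Ier2 and above both for Fosl1.

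Fos, the founding member of its family and a textbook read-out of growth factor and stress signalling (ENSMUSG00000021250, chromosome 12, 85473890 to 85477273, GRCm38), was abundant in both freshly isolated groups. Replicates 1 to 4, in that order here and for the other genes, gave 275, 397, 465 and 399 CPM in the hepatoblasts, 6.70, 4.35, 3.55 and 3.60 CPM in the in vitro hepatocytes and 210.0, 105, 213 and 197 CPM in the mature hepatocytes. Each in vitro library was far below each library of the other groups, and the hepatoblasts lay above the mature hepatocytes, with hepatoblast replicate 1 and mature replicate 2 low in their groups. The level per kilobase of exon was 163 ± 33.8 CPM per kb in hepatoblasts, 1.93 ± 0.629 in the in vitro hepatocytes and 77.1 ± 21.8 in mature hepatocytes (SD, n = 4). This put Fos at the 99.0, 51.3 and 95.9 percentile of the tested genes. In edgeR the log2 fold change was -6.39 (SE 0.31, adjusted p = 2.90e-09) in the in vitro hepatocytes against hepatoblasts, an 84.1-fold difference, and -5.31 (SE 0.29, adjusted p = 5.35e-09) against mature hepatocytes. Mature hepatocytes differed from hepatoblasts by -1.08 (SE 0.24, adjusted p = 0.00113). That last call lay close to the threshold on the fold change. It was lost without hepatoblast replicate 3 (-0.99), without mature replicate 2 (-0.90) and when the test itself asked for a log2 fold change over 1.

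Fosb, a close relative of Fos among the Fos proteins (ENSMUSG00000003545, chromosome 7, 19302696 to 19310051), showed the widest difference of the 10. Fosb read 170.5, 234, 278 and 204 CPM in the hepatoblasts, 0.735, 0.344, 0.800 and 0.690 CPM in the in vitro hepatocytes and 70.6, 52.0, 116 and 49.0 CPM in the mature hepatocytes. The in vitro values rest on 8 to 18 counts a library, near the lower end of what was measured, whereas the other groups had 790 to 1988 and 5286 to 8583 counts. The 3 groups did not overlap, in the order hepatoblasts, mature hepatocytes, in vitro hepatocytes, with mature replicate 3 the highest of its group. The log2 fold change in edgeR was -8.42 (SE 0.37, adjusted p = 1.53e-09) against hepatoblasts and -6.80 (SE 0.36, adjusted p = 3.51e-09) against mature hepatocytes, and mature hepatocytes differed from hepatoblasts by -1.62 (SE 0.25, adjusted p = 5.78e-05).

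Fosl1, which encodes Fra-1, a Fos protein without the activating domain of Fos (ENSMUSG00000024912, chromosome 19, 5447547 to 5455946), went the other way. Fosl1 read 0.645, 0.358, 0.453 and 0.232 CPM in the hepatoblasts, 4.496, 1.21, 3.69 and 2.42 CPM in the in vitro hepatocytes and 0.411, 0.193, 0.409 and 0.435 CPM in the mature hepatocytes. Each in vitro library was above all 8 of the others, and hepatoblasts and mature hepatocytes overlapped. The level was low throughout, with 7 to 20 counts a library in hepatoblasts, 28 to 104 in the in vitro hepatocytes and 3 to 7 in mature hepatocytes, and in vitro replicate 2 had the fewest of its group. In edgeR the log2 fold change was 2.79 (SE 0.42, adjusted p = 7.34e-05) against hepatoblasts and 3.01 (SE 0.46, adjusted p = 6.61e-05) against mature hepatocytes. Mature hepatocytes and hepatoblasts gave -0.22 (SE 0.49, adjusted p = 0.708), not called, a value that was -1.08 and not called under scaling to totals and changes sign without hepatoblast replicate 1 (0.05). Ccdc85b overlaps Fosl1 on the opposite strand and had 77 to 227 counts a library.

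Fosl2, which encodes the related Fra-2 (ENSMUSG00000029135, chromosome 5, 32135801 to 32157842), had its highest mean in mature hepatocytes and an intermediate one in culture. Fosl2 read 30.3, 20.6, 23.1 and 16.8 CPM in the hepatoblasts, 41.4, 37.2, 31.2 and 29.5 CPM in the in vitro hepatocytes and 56.2, 90.2, 34.7 and 78.8 CPM in the mature hepatocytes. Hepatoblasts and mature hepatocytes did not overlap, while the in vitro libraries overlapped both. Mature replicate 2, low for the other members, was the highest library for Fosl2, and mature replicate 3 the lowest of its group. The log2 fold change in mature hepatocytes against hepatoblasts was 1.52 (SE 0.26, adjusted p = 1.37e-04) in edgeR, and with libraries scaled to their totals, with or without the 50 most abundant genes, it was 0.65 or 0.83 and not called. It also was not called when the test asked for a log2 fold change over 1. In vitro hepatocytes gave 0.62 (SE 0.26, adjusted p = 0.0516) against hepatoblasts and -0.90 (SE 0.26, adjusted p = 0.00723) against mature hepatocytes, neither called. Without mature replicate 3 the latter was -1.11 and called.

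The make-up of the Fos family differed between culture and both fresh isolates. Summed per kilobase, the family came to 201 ± 40.2 CPM per kb in hepatoblasts, 95.5 ± 22.7 in mature hepatocytes and 7.09 ± 1.61 in the in vitro hepatocytes (SD, n = 4). Fos was 81.0% ± 1.62 of that sum in hepatoblasts and 79.8% ± 5.77 in mature hepatocytes, but 27.0% ± 3.38 in the in vitro hepatocytes. Fosb went from 17.7% ± 1.14 and 12.1% ± 3.68 to 1.48% ± 0.511 in the same order. Fosl2 was 51.5% ± 6.67 of the family in the in vitro hepatocytes, beside 1.24% ± 0.592 in hepatoblasts and 7.93% ± 5.10 in mature hepatocytes. Fosl1 was 20.03% ± 7.67 in culture and 0.112% ± 0.0706 and 0.183% ± 0.0259 in the fresh isolates. The in vitro shares of all 4 genes lay outside the ranges of both other groups. These shares do not depend on how the libraries are scaled, and no test was made of them. They do depend on the length used, as do the Jun shares below. That length merges all annotated exons of a gene, 2352 bases for Fos, 6243 for Fosb, 2033 for Fosl1 and 9680 for Fosl2. The transcripts expressed may be shorter. By this measure the family in culture was mostly Fra-2 and Fra-1 transcript at a low sum, where both fresh isolates held mostly Fos.

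**Figure D2:**
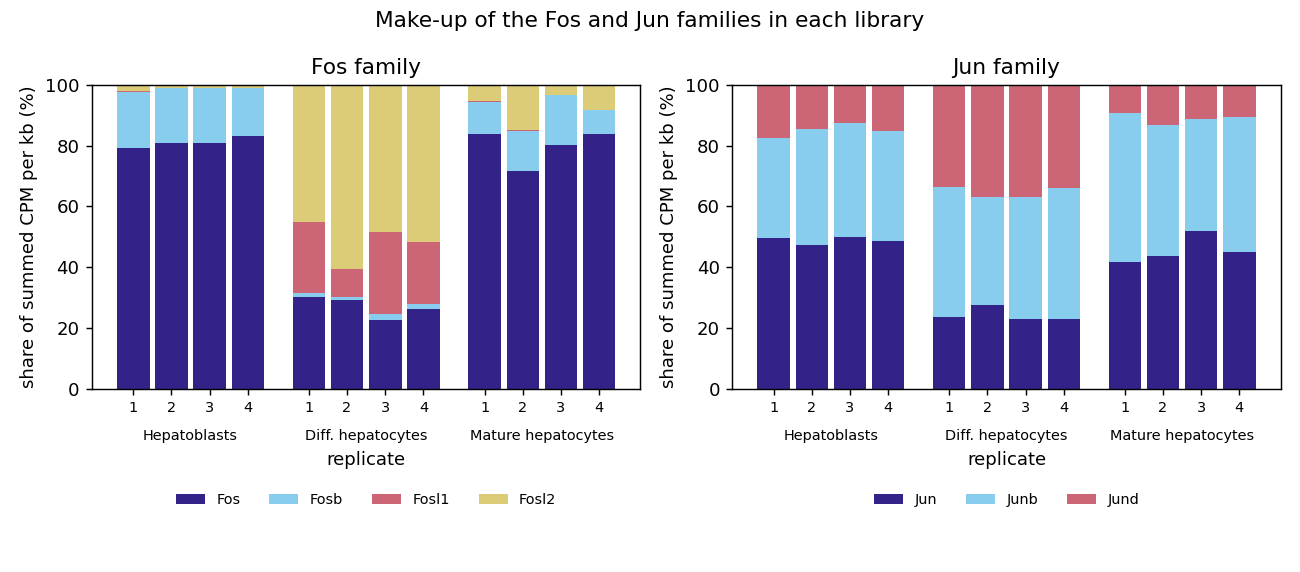
Share of each gene in the summed CPM per kb of the Fos family and of the Jun family, in percent, with 1 bar a library; Diff. hepatocytes are the in vitro hepatocytes. Fosl2 and Fosl1 fill most of the Fos family bars of the in vitro libraries, and Fos fills most of the bars of the other 8.

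Jun, the main partner of Fos in AP-1 (ENSMUSG00000052684, chromosome 4, 95049034 to 95052222), was the most abundant of the 10 per kilobase in hepatoblasts. Jun read 549, 729, 839.8 and 749 CPM in the hepatoblasts, 42.3, 45.7, 38.7 and 36.8 CPM in the in vitro hepatocytes and 690.1, 319.5, 611 and 529 CPM in the mature hepatocytes. In vitro libraries were close to one another and below all the others, and hepatoblast replicate 1 was below mature replicates 1 and 3, so the fresh isolates overlapped. Its level per kilobase was 225 ± 38.1 CPM per kb in hepatoblasts, 169 ± 50.0 in mature hepatocytes and 12.8 ± 1.23 in the in vitro hepatocytes, which is the 99.4, 98.1 and 85.4 percentile of tested genes. In edgeR the log2 fold change was -4.13 (SE 0.23, adjusted p = 8.93e-09) against hepatoblasts and -3.72 (SE 0.22, adjusted p = 1.08e-08) against mature hepatocytes. Mature hepatocytes against hepatoblasts gave -0.42 (SE 0.20, adjusted p = 0.0758), not called, and -1.27 and called with libraries scaled to their totals. Junos, an antisense gene at Jun, had 6 to 23 counts a library.

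Junb, a Jun protein that activates less strongly and can oppose Jun (ENSMUSG00000052837, chromosome 8, 84974484 to 84978718), had nearly the same mean in both fresh isolates under TMM scaling. Junb read 265, 423, 457 and 404 CPM in the hepatoblasts, 55.6, 42.7, 48.8 and 49.7 CPM in the in vitro hepatocytes and 584, 228, 313 and 376 CPM in the mature hepatocytes. Mature hepatocytes spread widely, with replicate 2 lowest and replicate 1 highest, and spanned the hepatoblast values. All in vitro libraries were below the other 8. The log2 fold change in edgeR was -2.98 (SE 0.26, adjusted p = 5.18e-07) against hepatoblasts and -2.93 (SE 0.26, adjusted p = 4.26e-07) against mature hepatocytes, and between mature hepatocytes and hepatoblasts -0.05 (SE 0.24, adjusted p = 0.874), not called, with a sign that changes when any of hepatoblast replicate 3, mature replicate 2 or mature replicate 3 is left out (0.03, 0.12 and 0.02), and -0.90 and not called with libraries scaled to their totals. Junb overlaps Prdx2, an abundant peroxiredoxin gene on the opposite strand with 1706 to 10422 counts a library, and while the libraries kept strand information, the strand setting of the counting is not stated.

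Jund, the Jun gene with the steadiest expression across tissues and stimuli (ENSMUSG00000071076, chromosome 8, 70698949 to 70700616), fell least among the 3. Jund read 101, 118, 110.4 and 121 CPM in the hepatoblasts, 31.7, 32.1, 32.7 and 28.3 CPM in the in vitro hepatocytes and 78.6, 50.6, 68.9 and 65.8 CPM in the mature hepatocytes. The groups did not overlap, in the order hepatoblasts, mature hepatocytes, in vitro hepatocytes. In edgeR the log2 fold change was -1.85 (SE 0.12, adjusted p = 3.99e-08) against hepatoblasts and -1.08 (SE 0.12, adjusted p = 3.58e-06) against mature hepatocytes. The second call was lost without mature replicate 1 (-0.99), with libraries scaled to their totals (-0.54) and when the test asked for a log2 fold change over 1. Mature hepatocytes against hepatoblasts gave -0.77 (SE 0.12, adjusted p = 5.04e-05), past the threshold on p but not on the fold change, and -1.63 and called under scaling to totals.

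As a family the Jun genes summed to 461 ± 77.8 CPM per kb in hepatoblasts, 371 ± 117 in mature hepatocytes and 52.9 ± 2.64 in the in vitro hepatocytes. Jun was 48.8% ± 1.13 and 45.6% ± 4.41 of the sum in hepatoblasts and mature hepatocytes and 24.2% ± 2.18 in the in vitro hepatocytes. Jund was 14.9% ± 1.997, 11.1% ± 1.68 and 35.4% ± 1.83 in the same order, and Junb 36.3% ± 2.22, 43.4% ± 5.003 and 40.4% ± 3.47. Jun transcript was thus the largest share in hepatoblasts, Jun and Junb did not differ beyond their spread in mature hepatocytes, and Junb and Jund exceeded Jun in culture. For Jun and Jund the in vitro shares did not overlap with those of either other group, and the Junb shares overlapped.

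Egr1, a gene induced through the ternary complex of SRF and ELK factors (ENSMUSG00000038418, chromosome 18, 34859823 to 34864984), fell in the in vitro hepatocytes and kept a moderate level there. Egr1 read 364, 669, 733 and 644 CPM in the hepatoblasts, 54.3, 66.4, 59.8 and 72.5 CPM in the in vitro hepatocytes and 461, 239, 412 and 350.5 CPM in the mature hepatocytes. All in vitro libraries were below the other 8, and the ranges of hepatoblasts and mature hepatocytes overlapped. The log2 fold change in edgeR was -3.25 (SE 0.24, adjusted p = 1.20e-07) against hepatoblasts and -2.53 (SE 0.23, adjusted p = 6.50e-07) against mature hepatocytes, and -0.72 (SE 0.22, adjusted p = 0.0101) between mature hepatocytes and hepatoblasts, not called, where scaling to totals gave -1.56 and a call. Mature replicate 2 was the lowest of its group here as well.

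Atf3, a repressor or activator by its partner that is induced by many stresses (ENSMUSG00000026628, chromosome 1, 191170296 to 191218039), was highest in hepatoblasts. Atf3 read 79.6, 138, 139 and 100.1 CPM in the hepatoblasts, 23.0, 20.02, 25.2 and 29.5 CPM in the in vitro hepatocytes and 41.5, 20.5, 70.1 and 54.1 CPM in the mature hepatocytes. Each hepatoblast library was above the other 8, and mature replicate 2 fell within the in vitro range. In edgeR the log2 fold change was -2.23 (SE 0.30, adjusted p = 3.31e-05) in the in vitro hepatocytes and -1.30 (SE 0.30, adjusted p = 0.00142) in mature hepatocytes, each against hepatoblasts. The second was not called when the test asked for a log2 fold change over 1. In vitro against mature hepatocytes gave -0.93 (SE 0.30, adjusted p = 0.0145), not called, and without mature replicate 2 it was -1.19 and called.

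Ier2 (ENSMUSG00000053560, chromosome 8, 84661331 to 84662852) fell in culture and had a higher mean in mature hepatocytes than in hepatoblasts. Ier2 read 108, 159, 158 and 143 CPM in the hepatoblasts, 29.2, 39.6, 35.6 and 34.4 CPM in the in vitro hepatocytes and 315, 153, 296 and 238 CPM in the mature hepatocytes. All in vitro libraries lay below the other 8, and mature replicate 2 lay within the hepatoblast range while the other mature libraries lay above. The log2 fold change in edgeR was -2.03 (SE 0.20, adjusted p = 2.00e-06) against hepatoblasts and -2.85 (SE 0.21, adjusted p = 7.61e-08) against mature hepatocytes. Mature hepatocytes against hepatoblasts gave 0.82 (SE 0.20, adjusted p = 0.00201), past the threshold on p but not on the fold change, and with libraries scaled to their totals -0.03, the opposite sign.

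Within the fresh isolates most members moved together from library to library, and Fosl2 ran apart. Mature replicate 2 was below its group's mean log2 level for 9 of the 10 members, with a median deviation of -0.64, and hepatoblast replicate 1 for 8 of the 10, with a median of -0.37. Hepatoblast replicate 3 was above its group's mean for 9 of the 10 (0.26), and mature replicates 1 and 3 for 8 of the 10 each (0.27 and 0.23). In vitro replicates 1 to 4 had median deviations of 0.12, 0.01, 0.02 and -0.07. Of the 10 members, 7, 5, 5 and 4 lay above the in vitro mean in these libraries. Over the 12 libraries, after each group's mean was taken off, Pearson's r was 0.92 for Jun with Ier2, 0.91 for Egr1 with Ier2, 0.90 for Jun with Jund, 0.85 for Jun with Egr1 and 0.84 for Fos with Jun. Fosb and Fosl1 were less tied to Jun (0.38 and 0.11). Fosl2 had a negative r with 8 of the other members, from -0.71 with Ier2 to -0.34 with Junb, and 0.06 with Fosl1. The members of a pair share libraries and their scaling. Hepatoblast replicate 1 is also the library with the high erythroid, macrophage and neutrophil markers, and their part in its lower values was not tested. Mature replicate 2 had the lowest endothelial sum of its group, 132 CPM, and a macrophage sum of 137 CPM beside 130.3, 234 and 259 CPM in the others, which was not tested either.

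Genes were ranked by their likeness to Fos over the 12 libraries, by Pearson's r of log2 CPM among 10194 genes averaging at least 5 CPM. The members Jun (0.995) and Fosb (0.991) are not in this ranking, though both had a higher r with Fos than Mrpl49. Members aside, the genes most like Fos were Sema6a (0.995), Mrpl49 (0.988), H2afy (0.988), Lgr5 (0.985) and Lect2 (0.983). For Fosl1 they were Anxa3 (0.973), Cap1 (0.964), Serpinb6a (0.963), Rab31 (0.960) and Peak1 (0.956). The 12 libraries fall into 3 groups, and 283 of the ranked genes had an r above 0.9 with Fos and 92 with Fosl1. With each group's mean taken off, the genes most like Fos were Fam168a (0.948), Itgav (0.932), Smarca1 (0.926), Pip4k2b (0.922) and Lasp1 (0.916), and 16 genes had an r above 0.9.

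Other immediate-early genes changed in both directions. Of 44 further genes of this class, 24 fell and 5 rose in the in vitro hepatocytes against hepatoblasts (median log2 fold change -1.20, beside -0.01 for all tested genes), 21 fell and 7 rose in mature hepatocytes against hepatoblasts (-1.10, beside -0.15), and 16 were lower and 11 higher in the in vitro than in the mature hepatocytes (-0.02, beside 0.09), a split that turned to 13 lower and 17 higher with libraries scaled to their totals. Over all tested genes that scaling gave 1776 lower and 5500 higher calls in the last comparison. In these 3 comparisons, 65.9%, 63.6% and 61.4% of the class were called, beside 28.9%, 44.8% and 35.8% of all tested genes. Here and in the lists below, genes were ranked only if called and averaging at least 5 CPM over the libraries compared. Among such genes, the in vitro hepatocytes changed most against hepatoblasts, by log2 fold change ± SE, in Egr2 (-5.13 ± 0.34), Ccn2 (5.12 ± 0.43), Socs3 (-4.96 ± 0.34) and Klf2 (-4.09 ± 0.28). Egr2 is a relative of Egr1, Socs3 the feedback inhibitor of cytokine receptors, Klf2 a flow-responsive factor abundant in endothelium, and Ccn2 a matrix protein known as a target of YAP. Ccn2 moved opposite to the other three, from 1.48 ± 0.291 CPM in hepatoblasts to 51.8 ± 33.2 CPM in the in vitro hepatocytes. Mature hepatocytes differed most from hepatoblasts in Tnfaip3 (-5.50 ± 0.17), Klf6 (-4.33 ± 0.27), Egr2 (-3.63 ± 0.31) and Klf2 (-3.57 ± 0.28), where Klf6 is a zinc-finger factor of the Klf2 family, with Tnfaip3, an inhibitor of NF-kappaB signalling, at 121 ± 21.4 CPM in hepatoblasts and 2.68 ± 0.514 CPM in mature hepatocytes. Between in vitro and mature hepatocytes the order was Nr4a1 (-6.44 ± 0.42), Ccn2 (6.08 ± 0.48), Gadd45g (-5.90 ± 0.26) and Socs3 (-3.65 ± 0.32), where Gadd45g encodes a growth arrest and stress protein. Nr4a1, a nuclear receptor induced by the same stimuli as Fos, was at 19.4 ± 6.19 CPM in hepatoblasts, 2.09 ± 0.319 CPM in culture and 183 ± 98.2 CPM in mature hepatocytes, so that it was higher in the adult cell than in the hepatoblast, unlike Fos. Of the 8 endothelial markers, 7 were called lower in culture against hepatoblasts, which is 87.5%, beside 28.9% of all tested genes called. In mature hepatocytes against hepatoblasts, where Klf2 fell too, 4 of the 8 were called, all higher. This is 50%, near the 44.8% of all tested genes called there. The part of endothelial cells in the value of Klf2 was not tested.

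Among 13 other leucine-zipper genes whose proteins pair with Fos or Jun, 11 were tested. In the in vitro hepatocytes 2 rose and 2 fell against hepatoblasts (median log2 fold change 0.22), and 2 were higher and 2 lower than in mature hepatocytes (0.11). In mature hepatocytes 3 were higher and 4 lower than in hepatoblasts (-0.58), or 1 higher and 6 lower with libraries scaled to their totals. Over all tested genes that scaling gave 2007 higher and 7920 lower calls in this comparison. The share called in culture against hepatoblasts, in mature hepatocytes against hepatoblasts and in vitro against mature hepatocytes was 36.4%, 63.6% and 36.4%, beside 28.9%, 44.8% and 35.8% of all tested genes. Jdp2, a repressor that pairs with Jun, rose in culture with Maf, a large Maf factor: the log2 fold changes ± SE against hepatoblasts were Jdp2 (1.499 ± 0.25) and Maf (1.35 ± 0.27). Mature hepatocytes differed from hepatoblasts, among others, in Maf (1.69 ± 0.27), Maff (-1.33 ± 0.27) and Mafg (1.29 ± 0.10), where Maf and Mafg lost their calls under scaling to totals (0.80 and 0.43). Against mature hepatocytes the in vitro hepatocytes differed, among others, in Jdp2 (3.55 ± 0.29) and Maff (1.42 ± 0.28). When the test asked for a log2 fold change over 1, Jdp2 and Maf in culture against hepatoblasts and both calls of Maff, a small Maf factor like Mafg, were lost.

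The kinases and factors that switch these genes on gave few calls. Of 23 genes of the ERK, JNK and p38 kinases and the SRF, ELK and CREB factors, 1 was called in the in vitro hepatocytes against hepatoblasts (median log2 fold change -0.26), 2 in mature hepatocytes against hepatoblasts (0.11) and 3 in the in vitro against the mature hepatocytes (-0.17), which is 4.3%, 8.7% and 13.0%, beside 28.9%, 44.8% and 35.8% of all tested genes. Scaling to totals raised the first 2 counts to 6 and 11, all lower but for 1, and turned the third from 1 higher and 2 lower to 2 higher and 1 lower. Over all tested genes that scaling gave 1985 higher and 3621 lower calls in the first comparison. In the second it gave 2007 higher and 7920 lower and in the third 5500 higher and 1776 lower. The first count of the list was 3 without hepatoblast replicate 4 or in vitro replicate 1 and 2 without in vitro replicate 3. Rps6ka3, which encodes the kinase RSK2 downstream of ERK, was the gene called in all comparisons, with log2 fold changes ± SE of -1.12 ± 0.14 in culture and -2.93 ± 0.15 in mature hepatocytes, each against hepatoblasts. Crem, a CREB relative with a cAMP-inducible repressor form, rose in mature hepatocytes, from 7.20 ± 0.247 CPM in hepatoblasts to 31.7 ± 4.70 CPM, and was at 6.64 ± 0.149 CPM in culture. In vitro against mature hepatocytes the called genes were Crem (-2.25 ± 0.11), Rps6ka3 (1.81 ± 0.15) and Map2k3 (-1.08 ± 0.14). Map2k3, a p38 kinase kinase, lost that call without mature replicate 2 (-0.93) and under scaling to totals (-0.56). It and Rps6ka3 in culture against hepatoblasts also lost theirs when the test asked for a log2 fold change over 1.

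Feedback inhibitors of the same kinases, which are themselves transcribed on stimulation, were mixed. Of 15 dual-specificity phosphatase, Sprouty and Spred genes, 6 fell and 2 rose in the in vitro hepatocytes against hepatoblasts (median log2 fold change -0.38), 7 fell and 3 rose in mature hepatocytes against hepatoblasts (-0.88), and 4 were higher and 3 lower in the in vitro than in the mature hepatocytes (0.57), or 9 higher and 3 lower with libraries scaled to their totals. Those called were 53.3%, 66.7% and 46.7% of the list in these comparisons, beside 28.9%, 44.8% and 35.8% of all tested genes. Under scaling to totals, 5500 of all tested genes were called higher and 1776 lower in the in vitro than in the mature hepatocytes. Among genes averaging at least 5 CPM, the log2 fold changes ± SE in culture against hepatoblasts were led by Dusp4 (2.07 ± 0.21), Dusp5 (-1.88 ± 0.22), Spry2 (-1.85 ± 0.24) and Spry4 (-1.49 ± 0.27). Dusp4 and Dusp5 act on ERK in the nucleus and the Sprouty proteins on receptor signalling upstream of it. With the same limit, mature hepatocytes differed from hepatoblasts most in Spry2 (-4.55 ± 0.30), Dusp5 (-4.03 ± 0.26), Spry1 (-2.91 ± 0.23) and Dusp6 (2.68 ± 0.27), and the leading genes in vitro against mature hepatocytes were Dusp1 (-3.25 ± 0.23), Dusp6 (-2.09 ± 0.26), Spry4 (-1.94 ± 0.27) and Dusp7 (1.36 ± 0.21). Dusp1, an immediate-early phosphatase of p38 and JNK, was at 63.5 ± 14.1 CPM in hepatoblasts, 29.3 ± 4.66 CPM in culture and 278 ± 80.1 CPM in mature hepatocytes, an order shared with Nr4a1. Spry4 in culture against hepatoblasts and Dusp7 were not called when the test asked for a log2 fold change over 1.

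Genes of the integrated stress response, which runs through ATF4 and CHOP and of which Atf3 is a target, gave more rises than falls in culture, where Atf3 fell. Of 14 such genes, 10 rose and 1 fell in the in vitro hepatocytes against hepatoblasts (median log2 fold change 1.29), with 6 higher and 1 lower under scaling to totals. Against mature hepatocytes 8 were higher and 1 lower (1.71). In mature hepatocytes 3 were higher and 4 lower than in hepatoblasts (0.16), or 2 higher and 7 lower under scaling to totals. The share called in culture against hepatoblasts, in vitro against mature hepatocytes and in mature hepatocytes against hepatoblasts was 78.6%, 64.3% and 50.0%, beside 28.9%, 35.8% and 44.8% of all tested genes. Under scaling to totals, 1985 of all tested genes were called higher and 3621 lower in culture against hepatoblasts. In mature hepatocytes against hepatoblasts that scaling gave 2007 higher and 7920 lower. Among genes averaging at least 5 CPM, the log2 fold changes ± SE in culture against hepatoblasts were led by Trib3 (5.04 ± 0.50), Nupr1 (4.82 ± 0.32), Ddit4 (3.97 ± 0.33) and Chac1 (2.56 ± 0.62). Trib3, a pseudokinase that is induced by ATF4 and CHOP, averaged 5.45 ± 4.38 CPM in hepatoblasts and 179 ± 34.0 CPM after culture, and Ddit4, an inhibitor of mTOR that glucocorticoids also induce, 16.0 ± 3.31 CPM and 250.2 ± 22.3 CPM. Nupr1 is a stress-induced chromatin protein and Chac1 an enzyme that degrades glutathione. Without hepatoblast replicate 1, Trib3 was at 5.77 and Chac1 at 4.01. The call of Chac1 was lost without hepatoblast replicate 2 (2.33) or 3 (2.25), when the 8 libraries compared were fitted alone (2.52), when the test asked for a log2 fold change over 1 and under scaling to totals (2.16). With the same limit, mature hepatocytes differed from hepatoblasts most in Asns (-4.78 ± 0.24), Vldlr (-3.74 ± 0.21), Cebpb (3.19 ± 0.12) and Herpud1 (1.91 ± 0.15), and in vitro from mature hepatocytes in Nupr1 (5.16 ± 0.35), Asns (4.81 ± 0.24), Trib3 (4.11 ± 0.48) and Vldlr (3.61 ± 0.21). Asns, which makes asparagine, averaged 159 ± 8.21 CPM in culture, 156 ± 18.8 CPM in hepatoblasts and 5.64 ± 2.26 CPM in mature hepatocytes.

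Heat shock genes encode protein chaperones and their regulators. Of 13, 1 rose and 3 fell in the in vitro hepatocytes against hepatoblasts (median log2 fold change -0.32), and 2 rose and 3 fell in mature hepatocytes against hepatoblasts (-0.70), or 1 and 9 with libraries scaled to their totals. In vitro against mature hepatocytes 2 were called, both lower (0.08), whereas scaling to totals gave 4, all higher. Calls made up 30.8%, 38.5% and 15.4% of the list in these comparisons, beside 28.9%, 44.8% and 35.8% of all tested genes. Under scaling to totals, 2007 of all tested genes were called higher and 7920 lower in mature hepatocytes against hepatoblasts. In vitro against mature hepatocytes that scaling gave 5500 higher and 1776 lower. By log2 fold change ± SE, among called genes averaging at least 5 CPM, the genes in front were Hspa1b (-2.29 ± 0.34) and Hsp90aa1 (-1.24 ± 0.19) in culture against hepatoblasts, Hspb1 (3.51 ± 0.38), Hsp90aa1 (-1.56 ± 0.19), Bag3 (1.45 ± 0.14) and Hspe1 (-1.004 ± 0.10) in mature hepatocytes against hepatoblasts, and Hspa1b (-1.42 ± 0.35) and Dnaja1 (-1.22 ± 0.08) in culture against mature hepatocytes. Hspa1b, an inducible HSP70, was at 16.6 ± 8.61 CPM in hepatoblasts, 3.37 ± 0.596 CPM in culture and 9.05 ± 2.99 CPM in mature hepatocytes. Reads of Hspa1b and its near-identical neighbour Hspa1a are hard to assign, so its level is uncertain. Under scaling to totals the calls of Bag3 in mature hepatocytes (0.59), of Hspa1b (-0.89) and of Dnaja1 (-0.69) in culture against mature hepatocytes were lost. Without mature replicate 3 Hspa1b was at -1.20 against mature hepatocytes and not called, which left 1 heat shock gene called. Hspe1 lost its call without hepatoblast replicate 2 (-0.99), hepatoblast replicate 3 (-0.99) or mature replicate 4 (-0.96). Hspe1, Hspa1b in culture against mature hepatocytes and Hsp90aa1 in culture against hepatoblasts were not called when the test asked for a log2 fold change over 1.

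Genes known from other systems as AP-1 targets changed in both directions in culture. Of 24 listed, 21 were tested. In the in vitro hepatocytes 5 rose and 5 fell against hepatoblasts (median log2 fold change -0.08), and 14 were higher and 1 lower than in mature hepatocytes (1.84). In mature hepatocytes 1 was higher and 14 lower than in hepatoblasts (-2.43), and under scaling to totals all 17 called were lower. Over all tested genes that scaling gave 2007 higher and 7920 lower calls in the same comparison. The share called was 47.6% in culture against hepatoblasts, 71.4% in vitro against mature hepatocytes and 71.4% in mature hepatocytes against hepatoblasts, beside 28.9%, 35.8% and 44.8% of all tested genes. By log2 fold change ± SE genes with large changes in culture against hepatoblasts included Ccnd1 (-3.33 ± 0.37), Plaur (2.67 ± 0.48) and Hmga1 (-2.66 ± 0.12). Plaur, the urokinase receptor, rose, by 3.57 without hepatoblast replicate 1. Ccnd1, cyclin D1 of the cell cycle, fell from 224 ± 49.9 CPM to 22.2 ± 14.0 CPM and Hmga1, a chromatin protein of proliferating cells, from 93.3 ± 6.67 CPM to 14.8 ± 1.88 CPM. Mature hepatocytes differed from hepatoblasts in Mmp2 (-5.36 ± 0.39), Hmga1 (-3.77 ± 0.13), Hmox1 (-3.12 ± 0.24) and Vim (-2.63 ± 0.34), and in vitro from mature hepatocytes, among others, in Plaur (5.87 ± 0.64), Mmp2 (5.07 ± 0.39) and Vim (3.88 ± 0.36). Without mature replicate 3 Mmp2 was at -6.14 and 5.83 in these comparisons. Mmp2 encodes a matrix protease, Hmox1 a haem-degrading enzyme and Vim an intermediate filament protein. Plaur was at 4.83 ± 4.54 CPM, 30.8 ± 11.3 CPM and 0.525 ± 0.121 CPM in hepatoblasts, in vitro hepatocytes and mature hepatocytes, with the highest level in culture, as for Fosl1. Mmp2 and Vim are also genes of mesenchymal cells. Of the 9 markers of those cells, 7 were lower and 1 higher in mature hepatocytes than in hepatoblasts and 7 higher and 1 lower in vitro than in mature hepatocytes. In each case 88.9% were called, beside 44.8% and 35.8% of all tested genes, and the part of those cells was not tested.

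Promoter sequence was searched for the members with a window in the reference. RefSeq windows (GRCm38.p6) of 250 bases before to 50 after a start of transcription were found for 7 of the 10 and for 32851 starts in all. The windows of Fos, Fosb, Jun and Junb lie at or near the end of the gene given above at which its transcription starts, those of Fosl2, Jund and Atf3 at other RefSeq starts, and matches are given for the first 4. In all windows both strands were searched for the CArG box of SRF, found in 1.63% of all windows, the CREB site TGACGTCA (1.79%) and its core TGACG (20.8%), which is part of it, the AP-1 site TGAGTCA (5.20%), the Jun promoter site TGACATCA (3.62%) and the EGR sites GCGGGGGCG (2.91%) and GCGTGGGCG (0.612%). Positions count from the RefSeq start. Fos held TGACG at -129 and -66. Fosb held GCGGGGGCG at -50 and TGACG at -60, Jun held TGACATCA at -45 and Junb TGACG at -106. These letters are matches only and say nothing of binding. Sites more than 250 bases before the start lay outside the search, so a motif without a match here may lie farther upstream. The 250 bases before the start are shown for Fos (chr12:85473640-85473889, plus strand), Fosb (chr7:19310046-19310295, minus strand) and Jun (chr4:95052223-95052472, minus strand), the 3 with the widest fall in culture, with the matches in capitals.
Fos: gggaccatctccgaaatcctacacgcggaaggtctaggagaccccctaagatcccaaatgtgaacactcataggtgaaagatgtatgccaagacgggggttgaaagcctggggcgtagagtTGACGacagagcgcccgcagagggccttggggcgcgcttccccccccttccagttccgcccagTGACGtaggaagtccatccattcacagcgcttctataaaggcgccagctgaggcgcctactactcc
Fosb: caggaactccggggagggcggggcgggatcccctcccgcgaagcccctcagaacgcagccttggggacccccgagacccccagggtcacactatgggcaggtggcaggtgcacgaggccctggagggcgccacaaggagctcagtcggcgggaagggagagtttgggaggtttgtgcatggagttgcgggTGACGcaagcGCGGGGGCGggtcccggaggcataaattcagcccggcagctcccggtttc
Jun: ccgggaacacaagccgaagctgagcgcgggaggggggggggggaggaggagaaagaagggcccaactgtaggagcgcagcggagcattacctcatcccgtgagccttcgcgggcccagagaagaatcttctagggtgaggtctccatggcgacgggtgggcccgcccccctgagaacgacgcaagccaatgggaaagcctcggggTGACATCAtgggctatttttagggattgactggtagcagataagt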

How the data were processed

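RNA was sequenced from 12 libraries, 4 a group. The authors checked reads with FastQC 0.11.2, mapped them and quantified genes with STAR 2.5.2b on GRCm38 and assessed duplicates with Picard 2.10.2; the libraries kept strand information, but the strand setting of the counts is not stated. Their deposited table holds raw counts. From these, edgeR 4.0.16 (R 4.3.3, limma 3.58.1) fitted 1 quasi-likelihood model over the 12 libraries to genes that exceeded 10 counts in at least 1 library, with TMM factors (0.677 to 1.44), tested each pair of groups and adjusted p over all tested genes by Benjamini-Hochberg. CPM uses the TMM-scaled totals, and log2 CPM for correlations a prior count of 2. Lengths and coordinates come from GENCODE M21, in which 53620 of the 53715 genes were found. Fosl1, and Fosb in culture, rest on few counts. The members and the gene lists were chosen with earlier results of these data known. Every member is named, and of each list the called genes with the largest absolute log2 fold change among those averaging at least 5 CPM, up to 4 a comparison; a few of these are not reported here. Dlk1, Cyp3a11, Cyp2e1 and the marker leaders were named for their level. Alternatives were DESeq2 1.42.0 and its size factors, library totals with or without the 50 most abundant genes, other filters and thresholds, a fold change threshold in the test, only the 8 libraries compared, a replicate block and each library left out. The pipeline was tested on simulated data.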

Additional observations from a re-analysis of the deposited data

Results flagged for a closer look

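In 5 of 66 groups of 4 libraries, 1 library lay far from the others for the spread of its group; chance sets about 1 in 20 groups apart in this way, which is 3.3 here. Fos in mature replicate 2 was at 105 CPM, the lowest of its group, where the others were at 197 to 213 CPM. Fosl1 in the same library was at 0.193 CPM, also the lowest, where the others were at 0.409 to 0.435 CPM. Hepatoblast replicate 1 had the highest summed level of the erythroid markers, 2459 CPM against 297 to 489.6 CPM, of the macrophage markers, 311 CPM against 77.5 to 97.5 CPM, and of the neutrophil markers, 416 CPM against 28.2 to 45.8 CPM.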

How the results depend on the processing

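Of the alternatives for single members, 631 gave the same direction and side of the threshold, 11 lost a call, 13 gained one and 5 changed sign; for the other named genes 1529 were the same and 33 lost a call. When the test asked for a log2 fold change over 1, 2966 genes were called in the in vitro hepatocytes against hepatoblasts and 4221 against mature hepatocytes, and 1 member in mature hepatocytes against hepatoblasts. At an adjusted p under 0.05 with no threshold on the fold change, the genes called were 10615, 11580 and, between mature hepatocytes and hepatoblasts, 12870, with 7 members among them. These shifts follow from the thresholds. With library totals, Ier2 in mature hepatocytes against hepatoblasts was -0.0318 on the log2 scale, the opposite sign, where the same scaling moved the median of all tested genes from -0.15 to -1.0003. Leaving out 1 library each, Fosl1 in the same comparison ran from -0.43 to 0.0503 and Junb from -0.35 to 0.12, neither called. Members called ran from 9 to 9 against hepatoblasts and 7 to 9 against mature hepatocytes in culture and 3 to 4 between the fresh isolates; all genes called ran from 4704 to 5170.0, 6027 to 6532 and 7621 to 7967. Deviations from the group mean in hepatoblast and in vitro libraries of the same number had r of 0.32, -0.06, 0.25 and 0.18 across genes, which are not independent, and those of different numbers from -0.35 to 0.24, so pairing by number is not excluded. A block for replicate number gave 9, 8 and 4 members and 5220.0, 6359 and 7988 genes called. Depth limits Fosl1, with counts from 3 a library.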
